A study of Caenorhabditis elegans with 2 samples.

Results

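Strong intronic regions away from promoters were 558 of 30000 pooled candidate regions from a ChIP-seq experiment on the transcription factor HLH-13 in Caenorhabditis elegans. They were chosen by signal and position. Each ranked among the 3000 pooled candidates of highest signal, and its summit, the point of highest signal in the region, lay in a protein-coding gene. The summit lay in none of that gene's exons and in no exon of another protein-coding gene. The summit also lay outside the window from 1000 bp upstream to 200 bp downstream of every protein-coding transcript start, and over 100 bp from tRNA, snoRNA, snRNA, miRNA and other ncRNA genes. The rest of the 3000 were 980 at promoters, 571 at non-coding genes, 447 between genes and 444 in exons. A further 6475 candidates met the same location rule with lower signal and are called weaker intronic candidates here.

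The embryos were of strain OP744, which has the unc-119 allele tm4063 and the transgene wgIs744. The transgene carries unc-119(+) together with hlh-13 fused to TY1, EGFP and 3xFLAG, so that a tagged HLH-13 is made. Whole late embryos of mixed sex, aged 3.5 hours and obtained by egg bleaching, gave 2 biological replicates of 1 group. The DNA, sonicated to 200 to 800 bp, was precipitated with an anti-GFP antibody, so the tagged protein in all cells of the embryo was measured at once. No second genotype, tissue or time was compared, and the candidate lists share 1 control library and hold background regions by design.

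HLH-13 is a basic helix-loop-helix protein of the Ptf1a family, and proteins of this class bind E-boxes, with the sequence CANNTG, as dimers. Long introns of C. elegans, the first ones above all, are known to hold enhancers of their host genes. Introns can also hold small RNA genes or their decayed copies, and tRNA genes are read by RNA polymerase III through a pair of internal promoter elements, the A box and the B box.

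The 3 members of highest signal lay in introns of srt-52, Y57G11C.22 and unc-104, and are shown because each held an A-box-like and a B-box-like sequence in this order on 1 strand. Capitals mark letters that match the boxes with at most 1 letter off over the pair, the box starts being 30 to 80 bp apart. The sequences are from RefSeq, WBcel235, + strand, 100 bp to each side of the summit: chrV:53391-53591 for srt-52, chrIV:14838248-14838448 for Y57G11C.22 and chrII:7001547-7001747 for unc-104.
srt-52: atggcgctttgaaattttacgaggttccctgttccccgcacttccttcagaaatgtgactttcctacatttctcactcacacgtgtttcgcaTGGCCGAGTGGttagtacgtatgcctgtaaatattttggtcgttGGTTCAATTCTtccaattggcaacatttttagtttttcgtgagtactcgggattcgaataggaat
Y57G11C.22: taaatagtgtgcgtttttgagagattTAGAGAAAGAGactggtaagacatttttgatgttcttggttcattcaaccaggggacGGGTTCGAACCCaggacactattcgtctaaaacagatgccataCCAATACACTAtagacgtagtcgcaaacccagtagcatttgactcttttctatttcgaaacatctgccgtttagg
unc-104: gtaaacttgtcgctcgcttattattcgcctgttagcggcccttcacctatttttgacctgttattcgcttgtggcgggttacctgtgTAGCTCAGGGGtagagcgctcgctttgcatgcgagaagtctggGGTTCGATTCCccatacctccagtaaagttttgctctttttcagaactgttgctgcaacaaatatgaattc

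In srt-52, a gene of a chemoreceptor family, the A box matched in full and the B box was 1 letter off, with the box starts 44 bp apart. In Y57G11C.22 the B box matched in full on both strands, and an A box 1 letter off stood 58 bp before it on the + strand and 43 bp before it on the − strand. In unc-104, which encodes a kinesin that carries synaptic vesicle precursors, both boxes matched in full, 43 bp apart. RefSeq annotates a tRNA pseudogene of 72 bp, C52E12.t1 (chrII:7001627-7001698, + strand), across the unc-104 summit, and the region matched annotated tRNA genes with up to 98.5% identity over 68 bp. Of the 32-mers within 50 bp of that summit, 52.9% occurred once in the genome, while those of srt-52 and Y57G11C.22 were all unique.

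Such a pair was present in 3 of the 3 members of highest signal, in 0 of the other 19 members of the optimal set, and in 4 of the 536 not in that set (0.746%). The optimal set is the authors' list of regions found reproducible. It was found in 7 of 558 members (1.25%, 95% Wilson interval 0.609 to 2.57%), in 1.48% of weaker intronic candidates and in 0.438% of grid positions, which are regular 100-bp steps through the introns that met the same location rule. With the rule applied to each replicate's list alone, the pair was in 1.36% for replicate 1 and in 2.93% (1.84 to 4.64%) for replicate 2. All 3 members at the top of the list thus had the pair, while in the pooled list its share over all members was below that of the weaker candidates. The pair was not counted in the weaker candidates of each replicate's list. Full matches of both boxes in any order were in 0.538% of members and 1.10% of weaker candidates of the pooled list. Each replicate alone was above its own weaker candidates, with 0.848% against 0.666% for replicate 1 and 1.55% against 0.796% for replicate 2. The pair was looked for after these sequences had been seen, so its count in them is a description. The other 4 hosts were C04E7.3, frl-1, mek-2 and lev-11, named after their values had been seen. A second member, in F59A1.18 (rank 657; named after its value had been seen), had a RefSeq tRNA pseudogene, F59A1.t4, within 100 bp. Matches to annotated tRNA genes were found in 3 members (0.538%), 0.448% of weaker candidates and 0.106% of grid positions.

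Signal, the authors' enrichment value, set the members apart by choice and is given as a description. The region in srt-52 had a signal of 107.7 in replicate 1 and 111.7 in replicate 2, where it ranked 61 and 56, and 218.5 in the pooled list (rank 54). The region in Y57G11C.22 had 76.5 in replicate 1 and 99.5 in replicate 2, with a pooled signal of 183.7 (rank 91). The region in unc-104 had 73.0 and 96.5, with a pooled signal of 167.9 (rank 110). These 3 were the highest members in each replicate as well as in the pooled list, although in replicate 1 the regions in usp-39 (72.8) and pcmd-1 (71.7) came close to that in unc-104. The srt-52 region was also the narrowest member, at 133 bp, where all the others were 370 bp wide.

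Of the members, 22 were in the optimal set (3.94%), which is made up of the pooled candidates of highest signal and holds 1.41% of all candidates. The rule and the optimal set rest on the same values, and nothing is read from this difference.

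**Figure D1:**
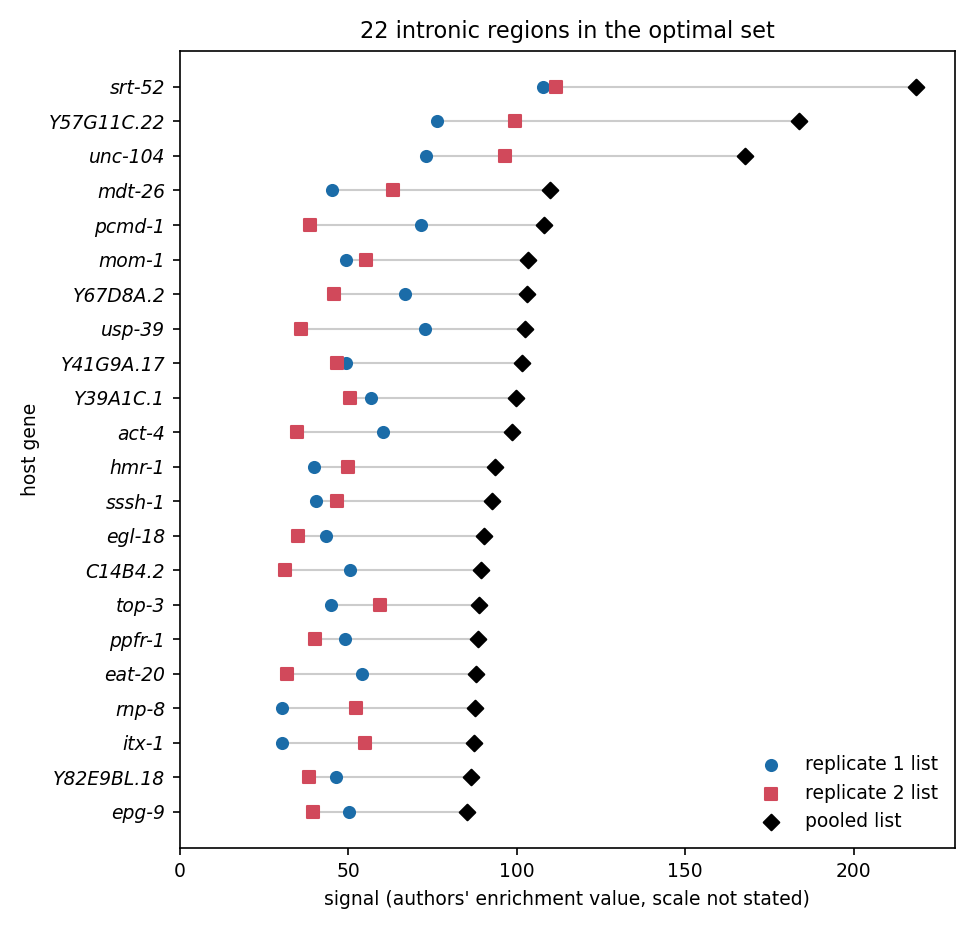
Signal of the 22 members in the optimal set, in the authors' units, with the replicate 1 value as a circle, the replicate 2 value as a square and the pooled value as a diamond. The regions in srt-52, Y57G11C.22 and unc-104 have pooled signals of 167.9 to 218.5, and the other 19 lie between 85.3 and 109.9.

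The fourth member was in mdt-26, which encodes a Mediator subunit, with 45.3 in replicate 1, 63.4 in replicate 2 and 109.9 in the pooled list. The member in pcmd-1, needed for the integrity of the pericentriolar matrix, had 71.7 and 38.8, and that in mom-1, the Porcupine enzyme of Wnt secretion, had 49.2 and 55.2. The replicates thus differed for pcmd-1, which ranked 151 in replicate 1 and 1045 in replicate 2, more than for mom-1, which ranked 367 and 270. A snoRNA gene, C17D12.8, lay 104 bp from the pcmd-1 summit, just outside the margin of the location rule. The member in Y67D8A.2 had 66.8 and 45.8, and had an ncRNA gene at 106 bp and mir-58a at 198 bp.

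Signal was higher in replicate 1 for 12 of the 22 and in replicate 2 for 10. The member in act-4, an actin gene, had 60.4 in replicate 1 and 34.8 in replicate 2. The member in hmr-1, the cadherin of the worm's adherens junctions, had 39.8 and 50.1. That in egl-18, a GATA factor of epidermal cells, had 43.5 and 35.2. Members in rnp-8, an RNA-binding protein of the germline, and itx-1, a protein related to neurexins, were low in replicate 1 (30.4 and 30.5) and high in replicate 2 (52.4 and 55.1). The reverse held for eat-20, a membrane protein needed for normal pharyngeal feeding, with 54.1 and 31.9, and for usp-39, with 72.8 and 36.1. The rest of the 22 were hosted by Y41G9A.17, Y39A1C.1, sssh-1, C14B4.2, top-3 (a DNA topoisomerase), ppfr-1 (a regulatory subunit of protein phosphatase 4), Y82E9BL.18 and epg-9 (an autophagy protein), with pooled signals from 85.3 to 101.7. In all 22 hosts both replicates had a candidate ranked among their 3000 best, at rank 2982 or better.

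Beyond the optimal set, the members were less alike in the replicates. A candidate overlapped in replicate 1 for 532 members and in replicate 2 for 546, and in both for 520 (93.2%). One of the 3000 best candidates of replicate 1 overlapped 267 members (47.8%; 11.3% of all pooled candidates), and one of those of replicate 2 overlapped 291 (52.2%; 11.3% of all). Both were true of 109 members (19.5%, 95% Wilson interval 16.5 to 23.0%; 3.36% of all pooled candidates), and neither of another 109. Pooled values contain both replicates, so these shares follow in part from the rule and nothing is read from their excess. Within bins of rank the members resembled all candidates: of ranks below the optimal set down to 1000, 55 of 110 members were among the best of both replicates and so were 51.0% of all regions, and of ranks from there to 3000, 32 of 426 members (7.51%) and 7.70% of all regions.

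Over the 520 members with a value in both, the Spearman correlation of the 2 replicates' signals was −0.19, and over all intronic candidates with both values it was 0.188. The members were selected on the pooled value of the same libraries, so the correlation is a description with no test. The median signal was 29.8 in replicate 1 (quartiles 23.6 and 36.2) and 31.9 in replicate 2 (26.6 and 37.8).

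**Figure D2:**
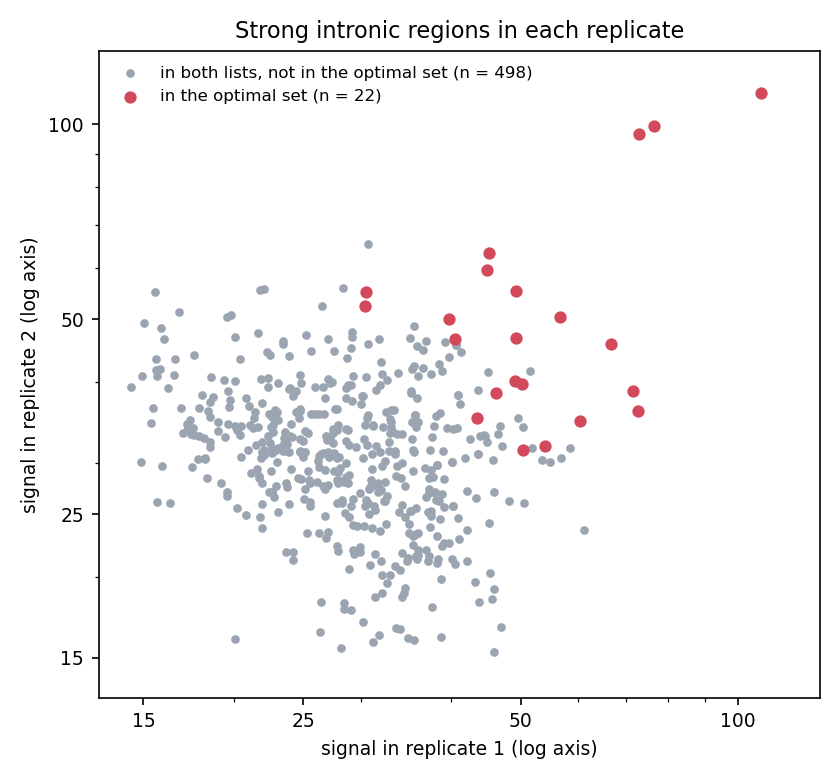
Signal of the 520 members with a candidate in both replicates, replicate 1 on the x axis and replicate 2 on the y axis, both in the authors' units on log axes. The 22 members in the optimal set are at 30.4 or more in replicate 1 and 31.4 or more in replicate 2, and the others run from strong in one replicate to strong in the other.

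At the rank limit the pooled signal ran on without a step. The last member, in an intron of chs-2, a chitin synthase gene, had a pooled signal of 52.31, with rank 2300 in replicate 1 and 19465 in replicate 2. The first intronic candidate outside, in T28D6.5, also had 52.31. It overlapped a member in the same gene (rank 604) and had the same candidate as that member in each replicate, with ranks 1313 and 1795, so these are not separate measurements. A candidate in an intron of unc-119, which the transgene carries too, fell just outside at rank 3008 with a signal of 52.28 and ranks of 1783 and 13769. Within hlh-13 itself no intronic candidate met the location rule. The highest pooled −log10 q was 2.36, and at the limit it was 0.53. Over all members the median was 0.803 (quartiles 0.622 and 1.18), while the 22 in the optimal set were at 1.955 or more. Members outside that set are thus ranked candidates and not regions that the authors listed as reproducible.

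Members lay in longer introns than the weaker candidates did, and more often in a first intron. The median intron was 1277 bp long (quartiles 608 and 4047), against 973 bp for weaker candidates and 911 bp for grid positions. With the rule applied to each replicate's list alone, 590 regions of replicate 1 had a median intron of 1284 bp and 580 of replicate 2 had 1081 bp; the excess over the weaker candidates of the same list was 342 bp and 138 bp, against 304 bp in the pooled list. A first intron of at least 1 transcript held 201 of the 557 members with an annotated intron (36.1%, 95% Wilson interval 32.2 to 40.2%), 31.2% of weaker candidates and 28.4% of grid positions. It was 36.5% for replicate 1 alone and 34.8% for replicate 2 alone, so both replicates were above the weaker candidates by more than they differed from each other. The 22 in the optimal set went the other way, with 6 in a first intron (27.3%, 13.2 to 48.2%) and 10 in the fourth intron or later.

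**Figure D3:**
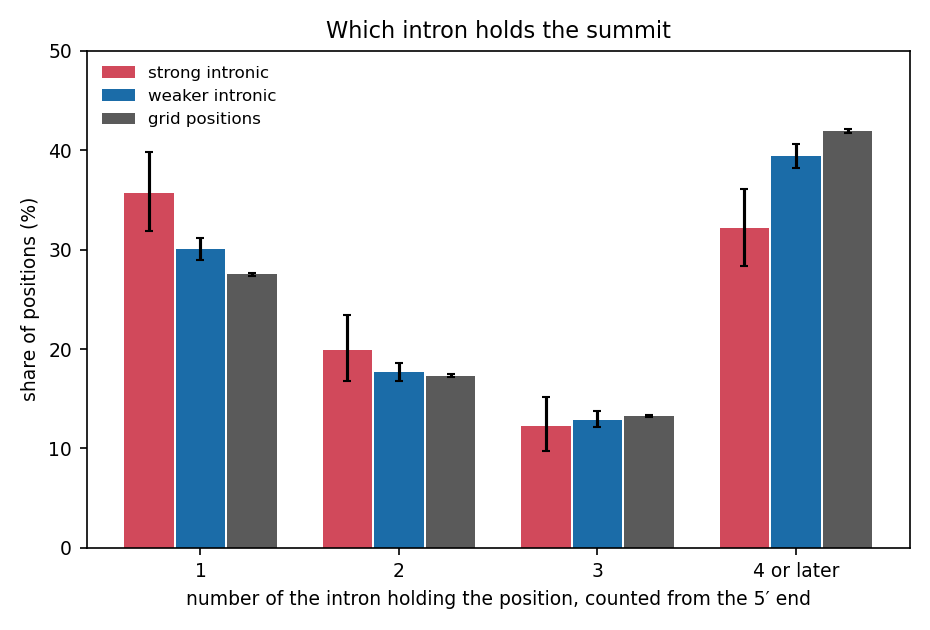
Share of positions, in percent, by the number of the intron that holds them, counted from the 5′ end of the host transcript, for 557 members, 6457 weaker candidates and 264133 grid positions with an annotated intron. Bars show 95% Wilson intervals; members are at 35.7% in intron 1 and 32.1% in intron 4 or later, where weaker candidates are at 30.04% and 39.4%.

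The median distance to the nearest coding start was 1744 bp for members, 1659 bp for weaker candidates and 1656 bp for grid positions, so the members were no closer to annotated starts. It ranged from 217 to 20104 bp, with 42 members over 5000 bp away. Splice sites were within 100 bp of 21.7% of members, 31.1% of weaker candidates and 32.96% of grid positions. A non-coding gene lay 100 to 500 bp away for 51 members (9.14%) and 5.48% of weaker candidates. By the RefSeq annotation 7 members fell in the promoter window of an mRNA.

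The summits were rich in G and C. Median G+C within 50 bp was 44.6% for members (quartiles 38.6 and 49.5), 38.6% for weaker candidates and 31.7% for grid positions, and it was 42.6% and 44.6% for replicate 1 and replicate 2 alone. The windows 400 bp away from the same summits had 37.1%, and the summit was above its own flanks in 414 of 558 members. The 22 in the optimal set had 51.98%, with 20 of them above their flanks, from 30.7% in usp-39 and Y41G9A.17 to 64.4% in Y67D8A.2. Strong regions between genes had 45.5% and strong exonic regions 47.5%, so the strong regions outside promoters had similar values in each class. Sonicated chromatin and sequencing libraries are known to vary with base composition, and its part in the choice of these regions was not tested.

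**Figure D4:**
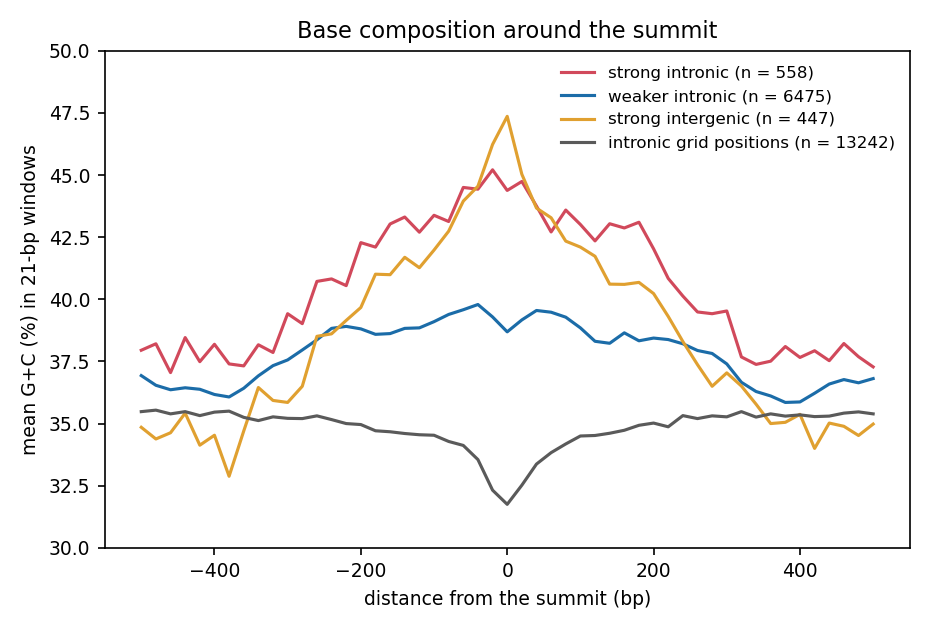
Mean G+C in percent in windows of 21 bp against the distance from the summit in bp, for members, weaker intronic candidates, strong regions between genes and grid positions. Distances are read along the + strand, whatever the strand of the host gene. The members rise from 38.0% at −500 bp to 44.4% at the summit, and the weaker candidates from 36.9% to 38.7%. Grid positions fall to 31.8% at the centre, where the rule holds them to introns but not their flanks.

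Within 50 bp of the summit 85.5% of members had only 32-mers that occur once in the genome, against 84.3% of weaker candidates and 80.8% of grid positions. At least 50% of the bases were masked as repeats in 25.5% of members, 35.5% of weaker candidates and 48.3% of grid positions. For 3 members no 32-mer was unique, in lgc-38, acr-23 and E02H9.3 (the last named after its value had been seen). The lgc-38 region, in a gene for a ligand-gated channel, had 58.6 in replicate 1 and 31.6 in replicate 2.

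E-boxes were not more frequent at these summits than nearby. A CANNTG lay within 50 bp of the summit in 146 members (26.2%, 95% Wilson interval 22.69 to 29.97%), in 31.5% of the flanks 400 bp away, in 29.3% of weaker candidates and in 26.2% of grid positions. Unlike summits and grid positions, the flanks were not held to introns, and strong exonic regions had a CANNTG in 41.4%. The part of this in the flank share was not tested. The deficit against the flanks did not hold in each replicate: summit and flank shares were 29.0% and 31.5% for replicate 1 alone, and 31.2% and 30.3% for replicate 2 alone. Of the 22 in the optimal set 5 had an E-box. Of the 10 kinds, CACGTG was in 14 members (2.51%), 2.15% of flanks and 1.90% of weaker candidates, and CAAATG in 28 (5.02%), 7.71% of flanks and 7.48% of weaker candidates. The other 8 kinds were each in 0.717 to 5.02% of members.

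The members of highest signal with an E-box were srt-52, Y57G11C.22 and mom-1. For Y57G11C.22 the 100 bp to each side of the summit are printed above, where capitals mark the A and B boxes. Within 50 bp of that summit lay a CAGATG. The E-boxes are shown here for srt-52 (chrV:53441-53541), which held a CACGTG, and mom-1 (chrX:6296492-6296592), both on the + strand with E-boxes in capitals and the summit at the centre.
srt-52: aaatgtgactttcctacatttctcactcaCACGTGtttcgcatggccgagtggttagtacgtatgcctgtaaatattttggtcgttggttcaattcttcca
mom-1: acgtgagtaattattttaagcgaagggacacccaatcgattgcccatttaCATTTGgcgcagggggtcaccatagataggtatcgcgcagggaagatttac

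Other short motifs moved in both directions. GAGAGA, which the GAGA factors of insects bind, was in 58 members (10.4%, 95% Wilson interval 8.13 to 13.2%), in 4.93% of their flanks, 6.33% of weaker candidates and 3.90% of grid positions. It was in 9.49% for replicate 1 alone and 11.7% for replicate 2 alone, and in 17.9% of strong regions between genes. Among the 22 in the optimal set 1 had it. GGGCGG, the core of GC boxes that Sp factors bind, was in 31 members (5.56%, 3.94 to 7.78%), in 2.78% of flanks and 3.29% of weaker candidates. Its excess over weaker candidates, 2.27 percentage points, was 1.45 for replicate 1 alone and 1.20 for replicate 2 alone, 0.46 with the rank limit applied after the location rule and 10.2 for the optimal set.

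Runs of 8 T were in 5.38% of members, 12.0% of flanks, 11.1% of weaker candidates and 19.4% of grid positions. Such runs were in 8.98% for replicate 1 alone and 5.69% for replicate 2 alone. TGATAA, bound by GATA factors, was in 3.23% of members and 6.24% of weaker candidates, and TAATTA, the core that homeodomains bind, in 1.61% and 3.80%. The share with TAATTA was 3.22% for replicate 1 alone and 1.90% for replicate 2 alone.

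For some motifs shares were also taken within bins of G+C, but not for TGATAA or TAATTA. Runs of T were in 13.3% of members against 21% of weaker candidates below 35% G+C, in 7.31% against 8.41% at 35 to 45%, in 1.61% against 3.14% at 45 to 55% and in 0 of 70 members against 0.79% at 55% or more, so they were less frequent in members in every bin. GAGAGA was in 4.82% of members against 2.88% of weaker candidates below 35% G+C, in 10.05% against 6.78% at 35 to 45%, in 12.9% against 9.88% at 45 to 55%, and in 11.4% against 11.5% at 55% or more. At 55% or more GGGCGG was in 13 of 70 members (18.6%) and 5.93% of weaker candidates, at 45 to 55% in 4.84% and 8.12%, at 35 to 45% in 4.11% and 2.58%, and below 35% in 0 of 83 members and 0.911%. The members were thus above the weaker candidates in 2 of the 4 bins and below them in the other 2.

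**Figure D5:**
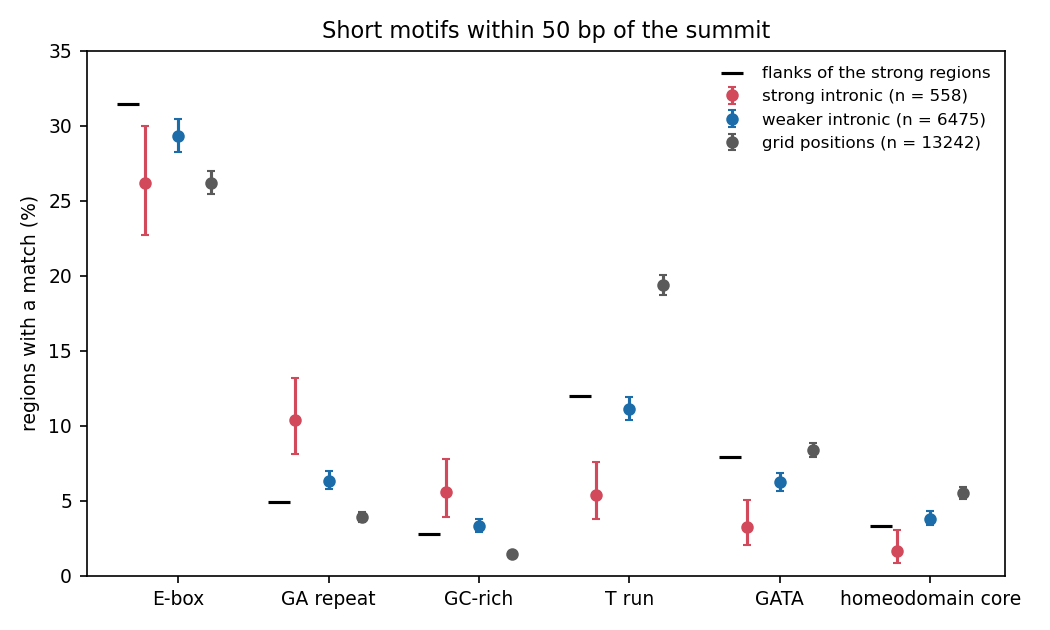
Share of regions in percent with a match within 50 bp of the summit for members, weaker intronic candidates and grid positions, with 95% Wilson intervals, and as a dash for windows 400 bp from the members' summits. The motifs are, from left to right, the E-box, the GA repeat, the GC-rich core, the run of T, the GATA motif and the homeodomain core; members are above weaker candidates for the GA repeat (10.4% and 6.33%) and below them for the T run (5.38% and 11.1%).

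Examples with these motifs in capitals are given for 4 members of high signal, chosen after their values had been seen: lag-1 (chrIV:6097215-6097315) and pqn-41 (chrIII:1921343-1921443) for GAGAGA, and Y67D8A.2 (chrIV:3233006-3233106) and F01D5.10 (chrII:14019723-14019823) for GGGCGG, all read on the + strand.
lag-1: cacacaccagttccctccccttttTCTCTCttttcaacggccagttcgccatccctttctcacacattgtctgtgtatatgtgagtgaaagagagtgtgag
pqn-41: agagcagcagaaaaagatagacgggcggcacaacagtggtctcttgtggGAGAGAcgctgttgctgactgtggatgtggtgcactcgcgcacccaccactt
Y67D8A.2: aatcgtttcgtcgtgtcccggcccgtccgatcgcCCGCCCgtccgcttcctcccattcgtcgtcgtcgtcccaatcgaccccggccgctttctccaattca
F01D5.10: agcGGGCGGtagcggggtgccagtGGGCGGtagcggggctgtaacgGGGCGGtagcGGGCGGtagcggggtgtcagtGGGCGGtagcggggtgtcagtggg

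The F01D5.10 region held GGGCGG 5 times in a tandem array, with 74.3% G+C and 62.9% unique 32-mers, and its signal was 28.3 in replicate 1 and 56.0 in replicate 2. The lag-1 region, in the gene for the DNA-binding effector of Notch signalling, had 36.0 and 45.5.

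The members lay in 487 host genes, which were 12.5% of the 3903 genes with any intronic candidate. A single member was in 435 hosts, and 52 hosts shared 123 members. Hosts with 2 or more were long, with a median of 17048 bp against 6516 bp for the rest. The host with most was hmr-1, with 5 members in a gene of 58913 bp, or 1.14 per 10 kb of intron that met the location rule. Over such introns of all coding genes, with or without a member, the value was 0.211. Hosts with most members were picked by their count, so nothing is read from this difference. The members of hmr-1 had signals from 53.0 to 93.7, and 22 weaker candidates lay in the same gene.

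Next came egl-18, kin-1 (the catalytic subunit of protein kinase A) and mbk-2 (a kinase of the egg-to-embryo transition; named as it tied with these), with 4 members each, or 3.54, 1.60 and 2.22 per 10 kb. In egl-18 the members lay in introns 1, 2 and 3 of its transcripts, with 40.2 and 30.1 in replicates 1 and 2 for a pair in intron 1 whose summits were 266 bp apart. These overlapped and shared 1 candidate in each replicate, so they are not separate measurements there. In all, 10 members overlapped another.

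Host genes were grouped by 21 lists of gene families and functions. Among signalling genes of the Notch, Wnt, TGF-beta, Ras, insulin and Hedgehog-related pathways, 15 of 39 genes with a candidate hosted a member (38.5%; 12.5% of all hosts), and 14.5% of their candidates were members against 7.93% of all. With each replicate alone 37.5% and 29.3% of such hosts had a region that met the rule. The hosts of highest signal were mom-1 and lag-1, followed by daf-2, the insulin receptor (named after its value had been seen), with 39.0 in replicate 1 and 41.7 in replicate 2. Axon guidance and neural adhesion genes hosted members in 15 of 55 (27.3%), led by hmr-1 and vab-2, an ephrin, with 35.8 and 34.1.

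Hosts of both lists are also long, with medians of 7458 and 11193 bp against 4768 bp for all hosts, and the share of candidates that were members in the adhesion list was closer to the background, at 8.77%. Muscle genes hosted members in 8 of 32, led by act-4 and unc-97, a protein of muscle attachments. Chromatin and transcription regulators did so in 10 of 52 (19.2%), led by mdt-26 and hda-4, a histone deacetylase. For these regulators replicate 1 alone gave 13.7%, beside 12.65% of all hosts, and replicate 2 alone 23.5%, beside 12.9%.

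Among transcription factors, 3 of 9 bHLH genes with a candidate hosted a member, hlh-30, hlh-11 and sbp-1, with pooled signals of 58.4, 57.0 and 53.5 (sbp-1 named after its value had been seen). With each replicate alone it was 2 of 8 and 1 of 6 (16.7%), so the share rests on few genes. hlh-30 encodes the worm's TFEB, a regulator of autophagy and lysosome genes, and had 28.8 in replicate 1 and 39.5 in replicate 2. Homeobox genes hosted members in 7 of 38 (18.4%), led by vab-7 (the even-skipped homolog; 43.9 and 33.03) and zag-1 (a zinc-finger homeodomain factor of neurons; 29.3 and 26.4). Nuclear hormone receptor genes did so in 7 of 68 (10.3%), led by nhr-65 and nhr-230. In the list of neuronal identity factors and zinc fingers it was 3 of 17, led by egl-27 and zag-1.

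The lists of channels, synaptic genes, receptors coupled to G proteins, neuropeptides and cilia ranged from 1.54 to 16.0% of hosts, against 12.5% of all hosts. Of the lists given above, axon guidance and neural adhesion (27.3%) and neuronal identity factors (17.65%) were higher. Of 65 voltage-gated and other ion channel genes with a candidate, 1 hosted a member (1.54%), the potassium channel gene twk-33 with 34.96 in replicate 1 and 21.4 in replicate 2. With each replicate alone the share was 9.84% and 10.6%, so the low value belonged to the pooled list. Synaptic and vesicle genes had 4 of 25 (16.0%), led by unc-104 and ida-1, where replicate 1 alone had 7 of 29 (24.1%) and replicate 2 alone 4 of 28. Ligand-gated channel genes had 4 of 38 (10.5%), led by lgc-38 and acr-23. A list of receptors coupled to G proteins, for transmitters and of other kinds, had 6 of 55 (10.9%), led by tyra-3, a tyramine receptor, and npr-42. Neuropeptides and insulins had 2 of 22, nlp-15 and nlp-21. The list of cilia genes had 1 of 24, tmem-132, whose role in cilia was not checked here. With replicates taken alone, replicate 1 gave 1 of 19 neuropeptide and insulin genes (5.26%) and replicate 2 alone 2 of 22, and cilia genes had 3 of 24 (12.5%) and 2 of 23 (8.70%).

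Chemoreceptor genes, with a median host length of 2042 bp, hosted members in 17 of 171 (9.94%), led by srt-52 and sre-46, the latter with 30.8 in replicate 1 and 65.4 in replicate 2. Hypodermis and cuticle genes had 10 of 79 (12.7%), led by dpy-23, an adaptor protein subunit, and nhr-23, a receptor of the moulting cycle; replicate 1 alone gave 8 of 69 (11.6%) and replicate 2 alone 14 of 67 (20.9%). Pharynx genes had 2 of 11, eat-20 and eat-3, and germline genes 1 of 7, mex-3, an RNA-binding protein. Here too the replicates alone differed, with 1 of 13 and 3 of 5 pharynx genes and 2 of 7 and 0 of 6 germline genes. Intestine and endoderm genes had 0 of 7 and cytosolic ribosomal protein genes 0 of 2, where replicate 2 alone had 1 of 5.

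Members were spread over all 6 chromosomes. Chromosome III held 22.9% of members, 19.1% of weaker candidates and 16.5% of grid positions, and chromosome IV held 12.0%, 14.2% and 16.9%. The X chromosome held 13.6% of members, 13.9% of weaker candidates and 16.6% of grid positions. Each replicate alone gave 22.9% and 20.9% on chromosome III and 14.2% and 12.1% on chromosome IV, with chromosome III above chromosome IV in both.

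Besides small RNA genes, other annotated genes lay within 100 bp of few summits. A pseudogene was near 4 members (0.717%; 0.574% of grid positions), an antisense RNA gene near 3 (0.538%, 95% Wilson interval 0.183 to 1.57%; 0.124% of weaker candidates and 0.121% of grid positions) and a lincRNA gene, linc-40 in Y82E9BL.18, near 1 (0.179%; 0.139% of weaker candidates). No member had a piRNA gene within 100 bp, where 0.494% of weaker candidates and 2.33% of grid positions did.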

How the data were processed

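Chromatin immunoprecipitation and sequencing (ChIP-seq) of 2 replicates was used as deposited. The authors deposited 30000 candidate regions for each replicate, called against 1 shared control library, and a pooled list from both, per the file manifests; the irreproducible discovery rate then gave their optimal set. Not given in the sources used here were the aligner, the peak caller and their versions. Signal, as deposited, is the authors' enrichment value per region, on a scale that is not stated. The deposited −log10 q values were not used to rank regions. The lists carry no read counts, so depth is unknown, and Wilson intervals cover the number of regions only.

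Coordinates are ce11, per the labels, the same assembly as WBcel235. Regions were placed by summit on Ensembl release 115 genes, and RefSeq gave the sequence. Motifs were searched on both strands within 50 bp of the summit and in windows 400 bp to each side, which were not held to introns. The genome background was every position at 100-bp steps that met the same location rule (264821), with every 20th (13242) used for sequence. Small RNA genes were matched with blastn (BLAST 2.17.0) over at least 50 bp at 75% identity. Other computation used scipy 1.17.1, pandas 2.3.3 and matplotlib 3.10.9 under Python 3.11.15. Placement and motif search were tested on simulated data.

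The members and the 21 gene lists were chosen with earlier results of these data known. 2 lists, homeobox factors and chemoreceptors, were corrected after values had been seen, to take out genes of other families, and 3 listed names matched no coding gene. The result of 1 list is not reported here. Named genes were the hosts of members in the optimal set, the hosts with most members, up to 2 hosts of highest signal per list, hlh-13 and unc-119, and the regions next to the rank limit; any other is marked where it is named. Each replicate's list alone, other rank limits, promoter windows, margins and motif windows were tried as alternatives. The bins of rank and base composition, the box pairs, the small RNA matches and the subset found in both replicates were chosen after seeing the data. No p-value was computed, since regions are not replicates and pooled signal chose the members.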

Additional observations from a re-analysis of the deposited data

How the results depend on the processing

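The number of regions that met the rule was 132 among the 1000 best pooled regions, 22 in the optimal set, 3000 where the rank limit was applied after the location rule, 109 with overlap in the best 3000 of each replicate, and 580 to 590 with either replicate left out; the location alternatives stayed within 1.5 times of 558. The excess of first introns over weaker candidates (4.90 percentage points) was 11.1 for the 1000 best, −4.32 for the optimal set, 1.16 with the limit applied after the location rule, 4.53 with introns overlapping another gene's exon, 4.18 with 2000-bp promoters, 6.75 and 2.10 with a 500-bp or no margin to non-coding genes, 2.75 for the subset in both replicates, and 5.53 to 5.98 with a replicate left out. The excess of intron length (304 bp) was 551.5 bp for the optimal set, 140.0 bp with the limit applied after the location rule, 83 bp with no margin, 509 bp for the subset in both replicates and 138 to 342 bp with a replicate left out. The E-box difference from flanks (−5.29 points) was −11.4 for the optimal set, −0.75 with the limit applied after the location rule, −2.75 for the subset in both, −1.17 in 25-bp windows, −1.89 in unique sequence, and −2.54 to 0.862 with a replicate left out. The excess of GAGAGA (4.06 points) was −2.12 for the optimal set, 1.18 with the limit applied after the location rule, 2.25 with 2000-bp promoters, 2.28 and 8.82 in 25-bp and 100-bp windows and 4.07 to 5.85 with a replicate left out. The excess of G+C (5.94 points) was 7.92 for the 1000 best and for the subset in both, 12.4 for the optimal set, 3.96 with the limit applied after the location rule, 4.95 with overlapping exons, 2000-bp promoters or a 500-bp margin, 6.93 with no margin and 4.95 to 5.94 with a replicate left out. The share in the best 3000 of each replicate was 13.3% with summits within 100 bp. The cause of these changes was not tested; the optimal set leaves 22 regions.

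Among smaller differences, the A and B box deficit against weaker candidates (−0.559 points) was 3.50 for the optimal set, 9.69 with no margin, which lets tRNA genes in, and 0.182 to 0.756 with a replicate left out. The E-box deficit against weaker candidates (−3.15) was 0.995 with the limit applied after the location rule, 0.0451 for the subset in both and 0.922 to 2.92 with a replicate left out. Single E-boxes against flanks changed sign: CAAATG to 1.38 for the subset in both and −1.27 to 0.517 with a replicate left out; CAAGTG to −4.54 for the optimal set, −0.233 with the later limit and −1.47 to −0.254 with a replicate left out; CAATTG was −0.339 to 0.172 and CATATG −0.678 to 0.517 with a replicate left out, CATATG being 0.117 with the later limit. CACCTG was 0.379 for the 1000 best, 2.27 for the optimal set, 0.833 with the later limit, 0.226 with 2000-bp promoters, 0.459 for the subset in both and 1.36 to 1.64 with a replicate left out, CACGTG −0.69 to −0.339 with a replicate left out, and CAGATG 4.54 for the optimal set, 0.113 with 2000-bp promoters and 0.459 for the subset in both. No paired analysis was possible because there is 1 group. Depth is unknown and 2 replicates bound the spread only loosely, so small differences in shares cannot be told from variation between replicates.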
